A study of Mus musculus with 6 samples.

Results

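The genes described here encode orphan and adhesion G protein-coupled receptors together with the small families of receptors for lysophospholipids, nucleotides and formyl peptides. A gene was included when its symbol began with Adgr, Lpar, S1pr, P2ry, Fpr or Gprc5, or with Gpr followed by digits. A probe set of the array also had to be annotated to that gene alone. Gpr137b-ps, a pseudogene by its name, was included through its symbol. This rule found 109 of the 18193 genes on the array, 22 of them adhesion receptors and 87 others. Expression had been measured in mouse bone marrow cells that were sorted, carried the leukaemia fusion MLL-AF9 and were either intact at Mn1 (MLL-AF9/Mn1wt, n = 3) or had Mn1 deleted by CRISPR-Cas9 (MLL-AF9/Mn1null, n = 3). Cells of both groups had received a control vector for EGFP, a green fluorescent protein, and the culture medium of both held the cytokines IL3, IL6 and SCF. The labels give no age, strain or sex and do not say whether the Mn1null cells came from 1 clone. They also do not place the replicates in separate cultures, so the p-values cover only the spread among these arrays, which may be technical. The product of Mn1 is a cofactor of transcription. The question put to the data was which receptor transcripts differ when that gene is deleted.

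G protein-coupled receptors cross the membrane 7 times and pass a signal from a ligand outside the cell to a G protein inside it, whose alpha subunit then acts on enzymes such as adenylyl cyclase or phospholipase C. Adhesion receptors carry, in addition, a long extracellular part that binds neighbouring cells or matrix and that most of them cut from the membrane part by self-cleavage. Blood cells use many of these receptors to sense nucleotides, lysophospholipids, fatty acids, protons and bacterial peptides. For many of the genes named Gpr no ligand is firmly established.

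The letters upstream of the genes with the most positive and the most negative difference among the tested receptors are shown first, because P2ry10 and Gpr84 mark the ends of the range described below. RefSeq windows of 300 bases (250 before to 50 after an annotated start, build GRCm38.p6, gene strand) were found for 85 of the 109 genes and for 10 of the 13 genes with a called difference of at least 2-fold. P2ry10 has a pair of annotated starts, with windows chrX:107088242-107088541 and chrX:107089083-107089382 (both on the plus strand). The window of Gpr84 is chr15:103310389-103310688 (minus strand). Capitals mark GATAA, the core that GATA factors bind, and GGAAGT, a core bound by ETS factors such as PU.1, on either strand (TTATC and ACTTCC on the other). These motifs do not overlap each other in the windows shown.
P2ry10, upstream start: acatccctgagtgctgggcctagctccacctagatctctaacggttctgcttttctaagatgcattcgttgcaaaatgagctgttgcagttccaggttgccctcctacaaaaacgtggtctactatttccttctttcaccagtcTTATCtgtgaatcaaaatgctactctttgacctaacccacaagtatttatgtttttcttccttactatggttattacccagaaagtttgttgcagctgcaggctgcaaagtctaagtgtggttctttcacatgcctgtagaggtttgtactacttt
P2ry10, downstream start: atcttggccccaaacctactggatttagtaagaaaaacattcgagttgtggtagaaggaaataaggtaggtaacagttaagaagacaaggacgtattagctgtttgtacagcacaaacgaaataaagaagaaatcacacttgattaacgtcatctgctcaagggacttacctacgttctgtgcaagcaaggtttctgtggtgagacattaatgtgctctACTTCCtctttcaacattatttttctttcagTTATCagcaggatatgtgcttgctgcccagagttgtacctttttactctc
Gpr84: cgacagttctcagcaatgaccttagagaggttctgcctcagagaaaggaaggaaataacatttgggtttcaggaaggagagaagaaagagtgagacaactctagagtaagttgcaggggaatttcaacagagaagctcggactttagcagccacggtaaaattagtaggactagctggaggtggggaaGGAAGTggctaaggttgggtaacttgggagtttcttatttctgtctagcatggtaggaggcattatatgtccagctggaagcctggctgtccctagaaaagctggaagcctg
The upstream P2ry10 window held a GATAA match whose first base lies at -106 from the start. The downstream window held a GGAAGT match at -31 and a GATAA match at 0. The Gpr84 window held a GGAAGT match at -62. Among all 32851 RefSeq windows, 25.4% held GATAA and 23.8% held GGAAGT, and of the 113 windows of receptor genes 22.1% and 21.2% did. The windows of P2ry1, Gpr15, P2ry13, S1pr4, Adgra3, Adgrg1 and Adgrg6 held neither motif, and that of Adgrl2 held GATAA at 37. Each match describes letters in these windows only.

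The values are log2 signals per probe set, made with RMA, which sets the arrays to 1 common distribution and compresses low signals towards a floor. Each gene was read by the probe set with the highest mean over the 6 arrays, and genes with a mean under 4.07 (the 30th percentile over the array) were not tested. Median signals of the 6 arrays ran from 5.17 to 5.23. Over the 14680 genes tested the correlation was 0.997 to 0.998 within a group and 0.968 to 0.969 between groups. Mn1 itself gave 4.49, 4.12 and 4.44 in Mn1wt and 4.21, 4.12 and 4.07 in Mn1null (limma, adjusted p = 0.121), and the transcript therefore gave no check of the deletion. Where its probe set lies relative to the deleted part is not stated. Labelling controls, bacterial transcripts of the kind added to the RNA, were lower in Mn1null by 0.85 at their 5′ probe sets and by 0.30 at their 3′ probe sets. Their part in any difference below was not tested. All 7 markers of blood progenitors listed (Ptprc, Spi1, Runx1, Myb, Kit, Cd34 and Mpo) had group means of 8.72 or more in both groups.

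Of the 109 receptor genes 74 were tested, and the other 35 had means between 2.91 and 4.04. The median level of the tested receptor genes was 5.39, against 7.60 for all genes tested. The part of this lower level in the shares that follow was not tested. With limma, 21 receptor genes were higher and 9 lower in Mn1null at an adjusted p of 0.05, and 44 did not pass. The called share was 40.5% of the tested receptor genes, against 48.8% of all genes tested, with 28.4% against 23.2% higher and 12.2% against 25.6% lower. A called difference of at least 2-fold was met by 13 receptor genes, or 17.6% of those tested, against 6.08% of all genes. Among these 13, 11 rose, or 14.9% of the tested receptor genes against 3.77% of all genes tested. The other 2 fell, or 2.70% against 2.30%. Adgrg6 and Gpr34, which are among the 11, had Mn1wt means under the filter level and were tested only through their Mn1null signal. The groups did not overlap for 35 of the 74 tested receptor genes, against 57.7% of all genes, with 24 higher (27.6% of all genes) and 11 lower (30.1%). The median difference of the tested receptor genes was 0.047, against -0.0053 for all genes. No test was made of the receptor genes as a list.

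**Figure D1:**
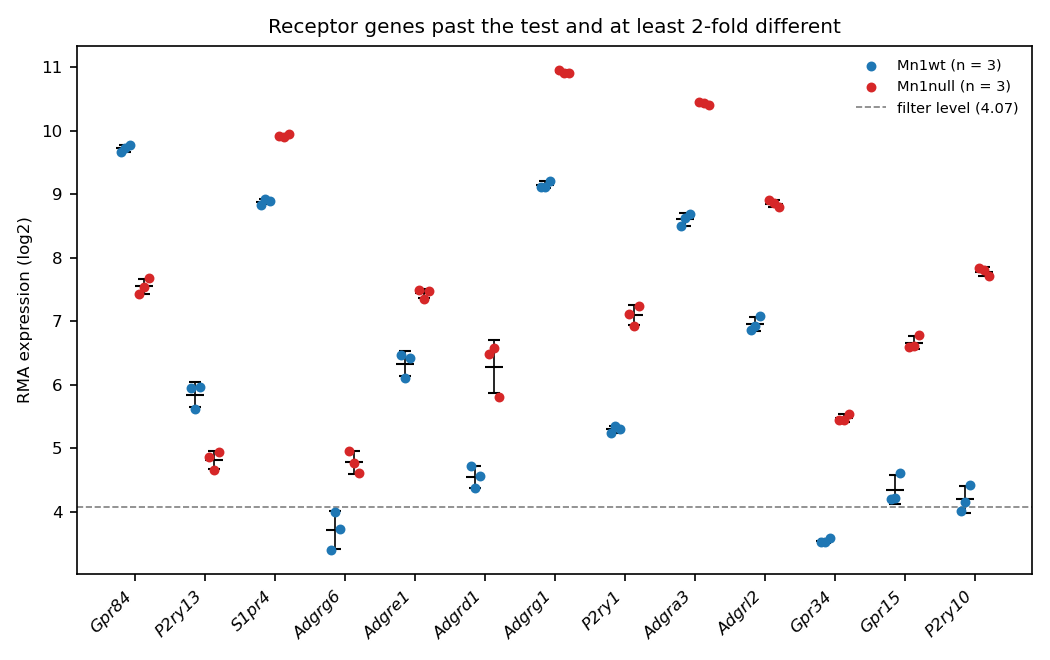
RMA expression (log2, vertical axis) of the 13 receptor genes that passed the test with a difference of at least 2-fold, ordered from the lowest to the highest difference; points are single arrays (3 of Mn1wt, 3 of Mn1null), bars are mean ± SD and the dashed line is the filter level of 4.07. The groups do not overlap for any of the 13. The Mn1wt points of Gpr34 and Adgrg6 and the lowest Mn1wt point of P2ry10 lie under the dashed line.

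**Figure D2:**
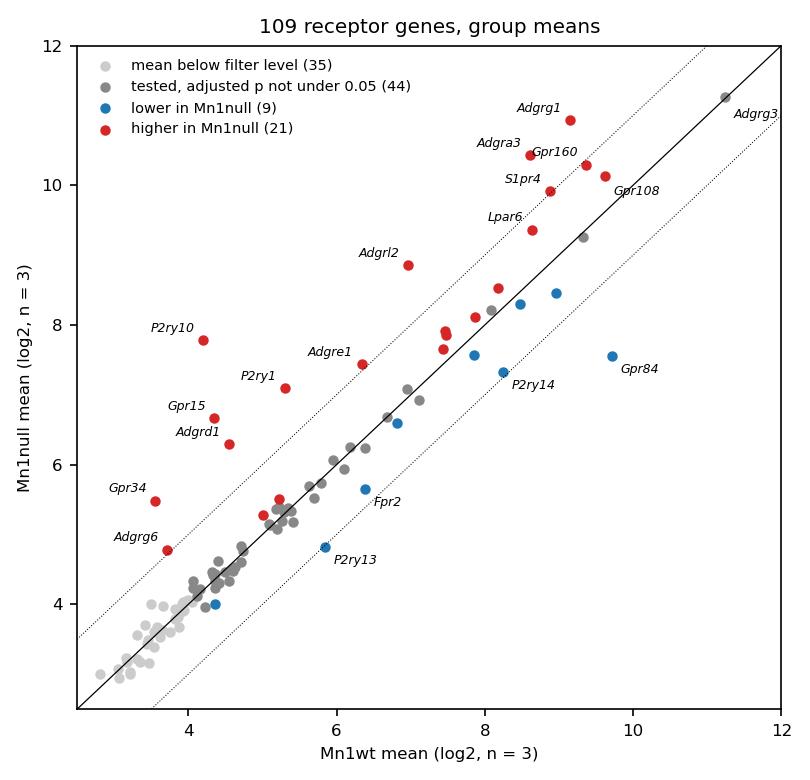
Mn1null mean against Mn1wt mean (log2, n = 3 each) for all 109 receptor genes, coloured by call; the solid line marks equality and the dotted lines a 2-fold difference. Most genes lie along the solid line, Adgrg3 lies on it at the upper end, and P2ry10 and Gpr84 lie farthest from it on either side.

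P2Y receptors respond to extracellular nucleotides and related molecules, and their genes moved in both directions. P2ry10, whose product is linked to lysophospholipid ligands rather than nucleotides, gave 4.02, 4.16 and 4.43 in Mn1wt and 7.83, 7.81 and 7.71 in Mn1null. All 3 Mn1null arrays thus lay more than 3 log2 units above all 3 Mn1wt arrays. The means of 4.20 ± 0.21 and 7.78 ± 0.065 (SD, n = 3 each) differed by 3.58 ± 0.105 (SE; limma adjusted p = 8.02e-07), and the Mn1wt mean lay near the floor, which compresses the fold. P2ry1, an ADP receptor known from platelets, gave 5.24, 5.35 and 5.31 in Mn1wt and 7.11, 6.93 and 7.25 in Mn1null. It rose 3.47-fold (adjusted p = 5.90e-06), with a gap between the groups that was wider than the range within either. Of 5 megakaryocyte markers tested, Itga2b, Vwf and Gp9 were higher (23.2% of all genes), Pf4 was lower (25.6%) and Gp1bb did not pass. Their mean level ran from 6.49 to 6.67 in Mn1wt and from 7.61 to 7.70 in Mn1null, and its part in the P2ry1 difference was not tested.

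P2ry13, another ADP receptor, fell from 5.96, 5.62 and 5.96 in Mn1wt to 4.86, 4.66 and 4.94 in Mn1null, a difference of -1.02 ± 0.115 (SE; limma adjusted p = 3.11e-04). P2ry14, the receptor for UDP-glucose, went from 8.25 ± 0.10 to 7.32 ± 0.082 (SD, n = 3 each) and fell by 0.93 (adjusted p = 4.95e-05). The groups of both genes were separate, with the Mn1null arrays below. P2ry6, a UDP receptor, fell by 0.36 (adjusted p = 0.00456) to a Mn1null mean under the filter level. P2ry2, at 6.96 and 7.08, and P2ry4, at 4.36 and 4.24, did not pass the test, with 95% intervals of the difference of -0.06 to 0.31 and -0.34 to 0.09. P2ry12 and P2ry10b were under the filter level.

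Several of these genes are neighbours. In the RefSeq annotation (GRCm38.p6), Gpr171 and P2ry14 are adjacent on chromosome 3, and so are P2ry13 and P2ry12. Of these P2ry13 and P2ry14 fell, P2ry12 was under the filter level at 3.64 in both groups, and Gpr171, a neuropeptide receptor gene, rose by 0.22 (limma adjusted p = 0.0369). The Gpr171 call was lost when any 1 of 5 arrays was left out (all but Mn1wt replicate 2; adjusted p up to 0.107), and with median centring or quantile normalization. On chromosome X, Lpar4, P2ry10, P2ry10b and Gpr174 follow each other. P2ry10 alone among these 4 passed the filter. In Mn1wt and Mn1null the means were 3.31 and 3.22 for Lpar4, 3.31 and 3.56 for P2ry10b, and 3.42 and 3.71 for Gpr174. The second probe set of Gpr174 gave 2.71 and 3.31.

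**Figure D3:**
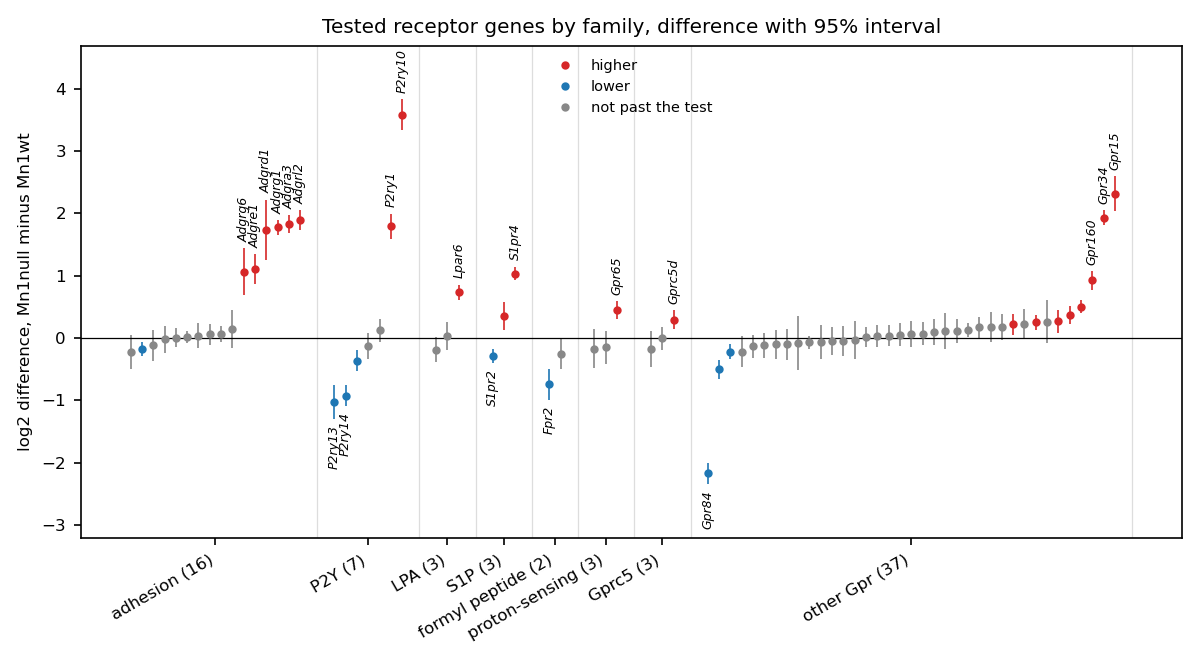
Difference of mean log2 expression, Mn1null minus Mn1wt (vertical axis), with its 95% interval for the 74 tested receptor genes, ordered within each family; the number of tested genes stands in brackets and colour gives the call. Adhesion receptors split into 6 genes above 1 and 10 near 0, P2Y genes lie on both sides of 0, and Gpr84 is the lowest point.

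Among the adhesion receptors 6 of the 16 tested rose, 1 fell and the test was not passed by 9, against 23.2% higher and 25.6% lower among all genes. Adgrg1, also known as GPR56, a receptor of stem cells and cytotoxic lymphocytes that binds matrix collagen, gave 9.11, 9.12 and 9.21 in Mn1wt and 10.96, 10.91 and 10.91 in Mn1null. The rise was 3.43-fold (limma adjusted p = 6.49e-07), and its other probe set gave 1.72 on the log2 scale against 1.78. Adgrg3, or GPR97, a receptor of granulocytes and mast cells and the direct neighbour of Adgrg1 on chromosome 8, gave 11.25, 11.22 and 11.24 in Mn1wt and 11.26, 11.25 and 11.26 in Mn1null. Its difference of 0.020 had a 95% interval of -0.08 to 0.12 and did not pass (adjusted p = 0.725). The 95% interval of the Adgrg1 difference was 1.66 to 1.89, so the intervals of these neighbours do not overlap.

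Adgrl2, a latrophilin, which binds teneurin and FLRT proteins of other cells, gave 6.87, 6.92 and 7.08 in Mn1wt and 8.91, 8.86 and 8.79 in Mn1null, a 3.72-fold rise (limma adjusted p = 1.86e-06). A second probe set of Adgrl2 gave 1.98 and a further one, at 5.39 in Mn1wt, gave 0.10 on the log2 scale. Its neighbour on chromosome 3, Adgrl4, an endothelial receptor gene, stood at 5.30 and 5.34 (adjusted p = 0.733). The other latrophilin genes Adgrl1 (6.68 in both groups) and Adgrl3 (4.36 and 4.34) did not pass either. Adgra3, or GPR125, went from 8.50, 8.63 and 8.69 to 10.45, 10.44 and 10.41, a 3.55-fold rise (adjusted p = 1.44e-06). The other 2 probe sets of Adgra3 had means under the filter level in both groups, and the mean of all 3 gave 0.64 instead of 1.83 on the log2 scale.

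Adgrd1, or GPR133, rose from 4.72, 4.38 and 4.56 to 6.48, 6.58 and 5.81, with the third Mn1null array lower than the other two but still above all Mn1wt arrays. The difference was 1.74 ± 0.204 (SE; limma adjusted p = 3.96e-04). Adgrg6, or GPR126, a receptor needed for myelination by Schwann cells, rose from 3.71 ± 0.30 to 4.78 ± 0.18 (SD, n = 3 each), from under the filter level to just above it (adjusted p = 0.00126). It was not tested with the mean of its probe sets, whose other member lay at 3.42 and 3.60, under a filter raised to the 50th percentile, or with probe sets designed for 1 transcript.

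Adgre1 encodes F4/80, a surface protein of mouse macrophages and eosinophils. It gave 6.47, 6.10 and 6.43 in Mn1wt and 7.49, 7.36 and 7.48 in Mn1null, a 2.15-fold rise (limma adjusted p = 1.33e-04). Of 10 monocyte and macrophage markers tested, 7 were lower and 1 higher (all genes, 25.6% and 23.2%). The mean level of these 10 ran from 8.65 to 8.79 in Mn1wt and from 6.57 to 6.63 in Mn1null. Of 5 eosinophil markers tested all 5 were higher (all genes, 23.2%), with Ccr3 under the filter level. The mean level of the 6 eosinophil markers ran from 5.08 to 5.18 in Mn1wt and from 7.12 to 7.26 in Mn1null. The part of either cell type in the Adgre1 difference was not tested, and in these bulk samples more cells of a type and more RNA per cell cannot be told apart. Adgre5, or CD97, a broadly expressed leukocyte receptor, was the adhesion gene that fell, by 0.18 from 8.48 (adjusted p = 0.0162), and without Mn1null replicate 1 its call was lost (adjusted p = 0.0623).

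Genes of the receptors for lysophosphatidic acid and sphingosine 1-phosphate moved in both directions. Lpar6, a receptor for lysophosphatidic acid, went from 8.59, 8.60 and 8.71 to 9.37, 9.32 and 9.41, a 1.66-fold rise (limma adjusted p = 4.13e-05). Lpar1 (5.28 and 5.32) and Lpar2 (7.11 and 6.92) did not pass. Lpar2 was called lower when its probe sets were averaged (-0.21, adjusted p = 0.0441) and with median centring (-0.23, adjusted p = 0.0308) or quantile normalization (-0.29, adjusted p = 0.0122). The other probe set of Lpar2 gave -0.24, and the dimmer probe sets of Lpar1 gave 0.039 and -0.41. The -0.24 and the -0.41 passed in a limma fit over probe sets (adjusted p = 0.0366 and 0.00355). Lpar3 and Lpar4 were under the filter level.

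All 3 tested receptors for sphingosine 1-phosphate passed, where 48.8% of all genes tested did. S1pr4, the receptor of this family found mainly on leukocytes, gave 8.84, 8.92 and 8.89 in Mn1wt and 9.91, 9.90 and 9.95 in Mn1null, a 2.05-fold rise (limma adjusted p = 4.58e-06). S1pr3 rose by 0.35 (adjusted p = 0.0196), with 0.67 and 0.48 on its other probe sets, and S1pr2 fell by 0.29 (adjusted p = 0.00213). S1pr3 lost its call without Mn1null replicate 1 (adjusted p = 0.0632) or replicate 3 (0.0503). S1pr1, which guides lymphocytes out of lymphoid organs, was at 3.95 and 3.92, under the filter level, as was S1pr5.

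Gpr34, a receptor for lysophosphatidylserine known from microglia and mast cells, gave 3.53, 3.53 and 3.59 in Mn1wt and 5.44, 5.45 and 5.55 in Mn1null. The difference of 1.93 ± 0.050 (SE; limma adjusted p = 4.86e-07) began under the filter level and is therefore compressed. Of 9 mast cell and basophil markers tested, 6 were higher in Mn1null (all genes, 23.2%), among them Cpa3, Hdc and Gata2. The mast cell proteases Tpsb2, Tpsab1 and Cma1 did not pass and Mcpt4 was under the filter level. The mean level of these 10 markers ran from 6.62 to 6.67 in Mn1wt and from 8.09 to 8.12 in Mn1null, and its part in the Gpr34 difference was not tested.

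Gpr84 showed the strongest fall of the tested receptor genes. It encodes a receptor of myeloid cells that responds to medium-chain fatty acids. Its signal was 9.66, 9.73 and 9.77 in Mn1wt and 7.43, 7.54 and 7.68 in Mn1null, with no overlap. The means of 9.72 ± 0.057 and 7.55 ± 0.12 (SD, n = 3 each) differed 4.50-fold (limma adjusted p = 1.40e-06). Fpr2, a receptor of phagocytes for formylated and other peptides, fell from 6.31, 6.34 and 6.51 to 5.84, 5.63 and 5.46 (adjusted p = 9.68e-04). Of the related mouse genes Fpr-rs3 was under the filter level, and Fpr-rs4 stood at 4.22 and 3.96 (adjusted p = 0.0690). In the same arrays 7 of the 10 monocyte and macrophage markers were lower, Fcgr1 was higher and Cd68 and Cx3cr1 did not pass. Of 9 mature neutrophil markers 6 were higher and 2 lower. Among all genes 23.2% were higher and 25.6% lower. The part of these markers in the falls of Gpr84 and Fpr2 was not tested.

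Gpr15, a receptor that guides T cells to the colon, gave 4.21, 4.23 and 4.61 in Mn1wt and 6.59, 6.62 and 6.79 in Mn1null. The rise was 4.99-fold (limma adjusted p = 8.34e-06) from a level near the floor. Of 5 T and NK cell markers tested with limma 0 were called (all genes, 48.8%), and 0 had an unadjusted p under 0.05. Cd3g was under the filter level. The mean level of these markers, with Cd3g, ran from 5.08 to 5.17 in Mn1wt and from 5.08 to 5.19 in Mn1null. Gpr160, an orphan receptor gene, rose from 9.43, 9.32 and 9.36 to 10.37, 10.18 and 10.33, a 1.90-fold difference (adjusted p = 3.70e-05).

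Among proton-sensing receptors Gpr65, which raises cyclic AMP in leukocytes at acid pH, rose from 7.48, 7.47 and 7.43 to 8.03, 7.87 and 7.83 (limma adjusted p = 8.52e-04). Gpr4 (6.38 and 6.23) and Gpr132 (6.10 and 5.93) did not pass, with 95% intervals of -0.41 to 0.11 and -0.48 to 0.14. Of the Gprc5 genes, which encode class C orphan receptors, Gprc5d rose by 0.29 (adjusted p = 0.00751). Gprc5a (5.70 and 5.52) and Gprc5b (4.12 and 4.11) did not pass, and Gprc5c was under the filter level.

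Some genes named Gpr encode membrane proteins of the secretory pathway rather than known surface receptors. Gpr108, a protein of the Golgi network, rose by 0.50 ± 0.045 (SE) from 9.63 (limma adjusted p = 1.07e-04), and its relative Gpr107 by 0.25 (adjusted p = 0.00549). Probe sets of Gpr107 disagreed, with 0.51, -0.27 and 0.03 on the others above the filter level, and their mean did not pass (0.11, adjusted p = 0.132). Gpr89, a channel of the Golgi, stood at 9.32 and 9.25 and did not pass (95% interval -0.17 to 0.03). Gpr180 fell by 0.50 from 8.96 (adjusted p = 7.22e-04). Smaller calls were those of Gpr19 (0.37), Gpr50 (0.27) and Gpr146 (-0.22). Gpr19 gave 0.027 on its other probe set and was not called with that one or with the mean of both. The call of Gpr50 was lost without Mn1wt replicate 2 or 3 or Mn1null replicate 1 or 3 (adjusted p 0.0591 to 0.0742), and also with the mean of probe sets, median centring or a variance trend. Gpr146 was not called once its probe sets were averaged (-0.084, adjusted p = 0.204).

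Downstream of the receptors stand the G proteins, the RGS proteins that switch them off, the kinases and arrestins that silence receptors, adenylyl cyclases, and enzymes and carriers of the ligands. A list of 86 such genes was drawn up, of which 71 were tested, 23 were higher and 14 lower. Among all genes tested 48.8% were called, 23.2% higher and 25.6% lower, and the 37 called of 71 lie near that share. The median difference of the list was 0.031.

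**Figure D4:**
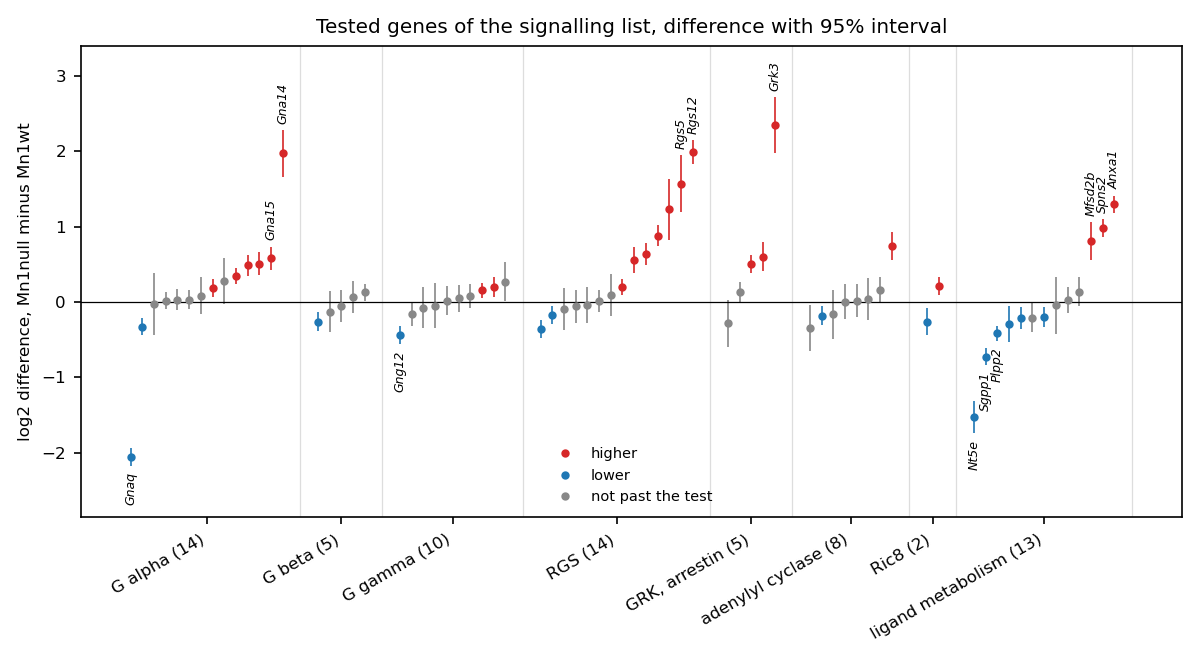
Difference of mean log2 expression, Mn1null minus Mn1wt (vertical axis), with its 95% interval for the 71 tested genes of the signalling list by role; numbers in brackets count tested genes and colour gives the call. Gnaq and Gna14 stand at opposite ends of the G alpha genes, and Grk3 is the highest point.

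Genes of the Gq class of alpha subunits, which activate phospholipase C, moved apart (the pair Gna11 and Gna15 was named after its values were seen). Gnaq went from 8.60, 8.61 and 8.67 in Mn1wt to 6.53, 6.63 and 6.56 in Mn1null, a 4.15-fold fall (limma adjusted p = 3.53e-07). Of its 7 probe sets all gave a negative difference, from -0.37 to -2.05, with an average of -1.37. Gna14 rose from 4.25, 4.71 and 4.31 to 6.50, 6.25 and 6.45, a 3.93-fold difference (adjusted p = 2.82e-05). Gna15, the blood cell member, rose by 0.58 from 8.89 ± 0.090 (SD, n = 3), and Gna11 stood at 9.16 and 9.19 (adjusted p = 0.672). In all, 6 of 14 tested G alpha genes rose and 2 fell, against 23.2% and 25.6% of all genes. Gng12, a gamma subunit gene, fell by 0.44.

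Of the tested regulators of receptor signalling, 3 of 14 RGS genes and 1 of 5 kinase and arrestin genes were called at least 2-fold higher. In both sets 0 were called at least 2-fold lower. Among all genes tested these shares were 3.77% and 2.30%, and no test was made of these small sets. Grk3, a kinase that marks active receptors for arrestin, gave 6.22, 5.64 and 6.16 in Mn1wt and 8.27, 8.29 and 8.50 in Mn1null, a 5.09-fold rise (limma adjusted p = 2.91e-05). Of 14 RGS genes tested 7 rose and 2 fell, where all genes gave 23.2% and 25.6%. Rgs12 rose by 2.00 ± 0.067 and Rgs5 by 1.57 ± 0.161 (SE), the latter from 4.15, near the floor. Other probe sets gave 0.64 for Rgs12 and 0.24 and 2.04 for Rgs5, and averages over all probe sets gave 0.84 and 1.05. Grk3 gave 0.74 on the probe set designed for 1 transcript and 2.11 on its remaining probe set.

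Of 13 genes that make, break down or carry ligands, 3 rose and 6 fell (all genes, 23.2% and 25.6%). Anxa1, whose protein annexin A1 is a ligand of formyl peptide receptors, rose from 9.60, 9.70 and 9.70 to 10.99, 10.96 and 10.94, a 2.46-fold difference (limma adjusted p = 2.39e-06), in the same arrays in which Fpr2 fell. A second Anxa1 probe set lay under the filter level, and averaging both gave 0.69 instead of 1.30 on the log2 scale. Nt5e, or CD73, which turns AMP into adenosine, fell by 1.53 ± 0.089 (SE), with -0.42 and 0.056 on its other probe sets and -0.63 for the mean of all 3. Sgpp1, a phosphatase of sphingosine 1-phosphate, fell by 0.72 ± 0.049 (SE), with -0.81 and -0.21 on its other probe sets. The -0.21 did not pass in a limma fit over probe sets (adjusted p = 0.142). Plpp2, a phosphatase of lysophosphatidic acid, fell by 0.41, and averaging its probe sets ended that call (-0.088, adjusted p = 0.263). The sphingosine 1-phosphate exporter genes Spns2 (0.98) and Mfsd2b (0.81), named after their values were seen, rose. The other probe set of Mfsd2b gave 0.093 (adjusted p = 0.432 in a fit over probe sets).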

How the data were processed

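RNA of 6 samples was hybridised to 1-colour Affymetrix mouse arrays. The authors deposited 1 log2 value for each probe set and array. The submitters' processing notes name RMA, with no version or filter given, and no normalization was added to it. Of 45101 probe sets, 64 controls were kept out of all tests, and 34945 named 1 gene in the platform annotation (932 named several, 9160 were not listed).

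The difference Mn1null minus Mn1wt was fitted by limma 3.58.1 (lmFit, eBayes; R 4.3.3), 2-sided, without a block, on 14680 genes, with Benjamini-Hochberg adjustment over all of them and a threshold of 0.05. Adjusted p-values come from this fit unless stated otherwise. A fold is 2 to the power of the difference. The steps were tested on simulated data. Named were Mn1, receptor genes called with a difference of at least 1 and separate groups, the 8 brightest, the tested members of the small families, and the 5 largest rises and falls of the signalling list; other called receptor genes were named after their values were seen. Members and lists were chosen with earlier results of these data known. Alternatives were other probe set rules, filters, normalizations, variance models, a replicate block, leaving out each array, and calling at 0.01. The number of arrays limits the precision.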

Additional observations from a re-analysis of the deposited data

How the results depend on the processing

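All 13 receptor genes with a called difference of at least 2-fold kept their direction and their call under every alternative in which they were tested. Some fell under 2-fold in an alternative. The smallest differences were 0.64 for Adgra3, 0.91 for Adgrg6, -0.94 for P2ry13 and 0.99 for both Adgre1 and S1pr4. Adgrg1 and Adgre1 were not tested with probe sets designed for 1 transcript, and Gpr34 was not tested with the 50th percentile filter. Over all alternatives except the threshold of 0.01, between 24 and 34 receptor genes were called, against 30. The median difference of the tested receptor genes moved from 0.047 to 0.0016 with median centring and to 0.021 with quantile normalization. It ran from 0.018 to 0.073 when 1 array was left out. Median centring subtracts a constant from each array, so it moved the differences of all genes by the same amount. The distance between the receptor median and the median of all genes therefore stayed the same with median centring. The 14 lower genes of the signalling list became 7 with the mean of a gene's probe sets, 8 with probe sets designed for 1 transcript, 8 at a threshold of 0.01 and 8 to 12 when 1 array was left out. The sign turned, without a call on either side, for Adgrg3 (-0.025 with median centring), Gprc5b (-0.065 to 0.045 when 1 array was left out), Lpar1 (-0.11 with the mean of its probe sets, -0.012 with median centring, -0.067 to 0.12 when 1 array was left out) and Gna11 (-0.032 with the mean, -0.014 with median centring, -0.010 to 0.066 when 1 array was left out). The turns with median centring follow from its common shift, and those with the mean from a dimmer probe set (Lpar1 -0.41, Gna11 -0.096). The causes of the turns when 1 array was left out were not tested. Among the named genes beside Lpar2, calls were gained by Fpr-rs4 with median centring (-0.30) or without Mn1wt replicate 1 (-0.34), P2ry2 without Mn1wt replicate 3 (0.21) and Mn1 without Mn1wt replicate 2 (-0.33, adjusted p = 0.00727). Other receptor genes that gained a call were Gpr137 (mean of probe sets; 50th percentile filter), Gpr75 (array weights; without Mn1wt replicate 3), Gpr26 (without Mn1wt replicate 1), Gpr12 (without Mn1wt replicate 3), Adgra1 (replicate block) and the 4 that passed with no filter. The alternatives for genes of the signalling list were added after seeing the data. Same-numbered samples deviated together at r = -0.0394, 0.109 and 0.0804, so the numbers were not taken to pair samples; with the replicate block 21 receptor genes were higher and 10 lower, and all 30 calls were kept.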

Other observations

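Of the 35 receptor genes under the filter level, 9 had groups that did not overlap, 4 higher and 5 lower in Mn1null. Among all 3513 genes under that level the groups did not overlap for 14.7%, with 7.97% higher and 6.69% lower. Without a filter limma called 34 receptor genes, the 30 described above and Gpr31b, Gpr35, Gpr174 and Gpr143. That is 31.2% of the receptor genes, against 38.7% of all genes in that fit. Gpr31b, a relative of receptors for oxidised fatty acids, gave 3.50 in Mn1wt and 4.01 in Mn1null, and Gpr35, a receptor of intestine and leukocytes, gave 3.66 and 3.98. Gpr174, a lysophosphatidylserine receptor of lymphocytes, gave 3.42 and 3.71, and Gpr143, a receptor of pigment cells, gave 3.47 and 3.16. All these means lie below the level of 4.07 at which genes were admitted to the test.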
